A study of Mus musculus with 6 samples.

Results

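Lipid droplet coat proteins and lipases were examined in RNA-seq of whole mouse ovaries, through 10 genes taken by symbol from the 44788 genes of the count table. They were the perilipins Plin1 to Plin5, the CIDE genes Cidea, Cideb and Cidec, the lipase gene Pnpla2 and the acyltransferase gene Dgat2, and all 10 had enough counts to be tested. The 6 ovary samples came from 8-week-old C57BL/6 J mice, 3 wild type (Bnc1+/+, replicates 1, 4 and 7) and 3 Bnc1tr/tr (replicates 1, 2 and 3). Bnc1tr/tr mice are homozygous for a germline 5 bp deletion in exon 4 of Bnc1 that shifts the reading frame to a premature stop codon, so every cell type of the ovary carries it. The comparison asked how genes that coat, fill and empty lipid droplets differed between the genotypes.

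A lipid droplet is a store of triglycerides and cholesterol esters enclosed by a single layer of phospholipid and coated with proteins. Perilipins sit on that surface and control the access of lipases, CIDE proteins promote the exchange of lipid between droplets and their growth, and adipose triglyceride lipase (the product of Pnpla2) starts triglyceride breakdown. In the ovary, luteal and theca cells keep cholesterol esters in droplets as a supply for steroid synthesis, oocytes hold droplets of their own, and the fat pad around the ovary consists of adipocytes with very large droplets.

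The members that differed most lie next to each other. In GRCm38, Plin4 occupies chromosome 17 from 56100591 to 56109803 and Plin5 the same chromosome from 56111601 to 56117596, both on the minus strand with 1797 bases between them. Their RefSeq promoter windows (GRCm38.p6, 250 bases before to 50 after the start, minus strand) are shown because both genes were lower in Bnc1tr/tr ovaries. Capitals mark TATAAG and AGGTCA, searched on both strands. AGGTCA is the half-site of many nuclear receptors, and TATAAG was searched after both windows had been seen to hold it.
Plin4, chr17:56109733-56110032: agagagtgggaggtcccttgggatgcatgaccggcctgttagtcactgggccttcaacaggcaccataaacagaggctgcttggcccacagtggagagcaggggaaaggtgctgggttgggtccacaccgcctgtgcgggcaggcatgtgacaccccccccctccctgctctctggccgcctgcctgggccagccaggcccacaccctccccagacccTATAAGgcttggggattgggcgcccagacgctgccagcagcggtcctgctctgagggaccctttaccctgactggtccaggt
Plin5, chr17:56117499-56117798: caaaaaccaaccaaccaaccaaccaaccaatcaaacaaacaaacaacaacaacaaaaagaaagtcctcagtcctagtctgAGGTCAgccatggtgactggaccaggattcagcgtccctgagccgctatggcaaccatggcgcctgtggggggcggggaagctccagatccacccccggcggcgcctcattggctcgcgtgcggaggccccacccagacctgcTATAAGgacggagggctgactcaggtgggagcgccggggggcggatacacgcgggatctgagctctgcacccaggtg
TATAAG was present in 7.43% of the 32851 promoter windows of the same length in the table, and AGGTCA in 16.3%. Plin4 held no AGGTCA in this window and Plin5 held 1. RefSeq lists a second Plin5 start, not printed here, whose window (chr17:56117249-56117548) held 0 TATAAG and 1 AGGTCA. Such matches describe letters, and no binding was measured here.

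Before the members are described, 3 facts about the libraries are needed. Depth ran from 25247770 to 34406296 counted reads per ovary. Bnc1 itself had 375, 444 and 381 reads in the wild type and 527, 355 and 326 reads in the mutant, and these reads do not show the deletion. Fat and oviduct, which adjoin the ovary, were unevenly represented within the genotypes. The summed level of 14 white adipocyte markers was 96.7, 45.1 and 160 CPM in Bnc1+/+ replicates 1, 4 and 7 and 564, 375 and 65.1 CPM in Bnc1tr/tr replicates 1, 2 and 3. The summed level of 10 oviduct markers was 159, 31.7 and 32.5 CPM in Bnc1+/+ against 14.9, 31.6 and 560 CPM in Bnc1tr/tr ovaries. Markers of ovarian cells were abundant, with 12 corpus luteum markers at 23583 to 28271 CPM in Bnc1+/+ and 7430 to 12904 CPM in Bnc1tr/tr ovaries. Granulosa and oocyte markers were called higher for 1 of 12 and 3 of 12 genes and lower for 0, against 2.88% of all genes tested called higher. Granulosa markers had 6 negative and 6 positive log2 fold changes, with 5 at an unadjusted p under 0.05, 4 of them higher. Oocyte markers had 2 negative and 10 positive, with 5 at an unadjusted p under 0.05, all higher. Of 6 theca and 12 macrophage markers edgeR called 0 (1 of each at an unadjusted p under 0.05, and 1 theca marker with DESeq2 and 0 with limma-voom). CPM are counts scaled to a common library size after TMM normalization, and in whole tissue fewer cells of a type and less RNA per cell cannot be told apart.

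Of the 10 members, 2 fell, 1 rose and 7 did not pass the test in Bnc1tr/tr ovaries. The ovaries were compared by the quasi-likelihood method of edgeR, two-sided, with p values adjusted by Benjamini-Hochberg over all 19423 genes tested and a threshold of 0.05. Of all genes tested, 7.06% were called, 4.19% as lower and 2.88% as higher. Of the same 19423 genes, 4698 had an unadjusted p under 0.05 with edgeR, DESeq2 called 2420 and limma-voom 1303. The ovaries of the genotypes did not overlap for 5 of the 10 members, against 30.8% of all genes tested. The median log2 fold change of the members was -0.11, against 0.018 over all genes tested, so the list as a whole did not move one way. The calls were in the perilipins, and the perilipins themselves went in opposite directions.

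**Figure D1:**
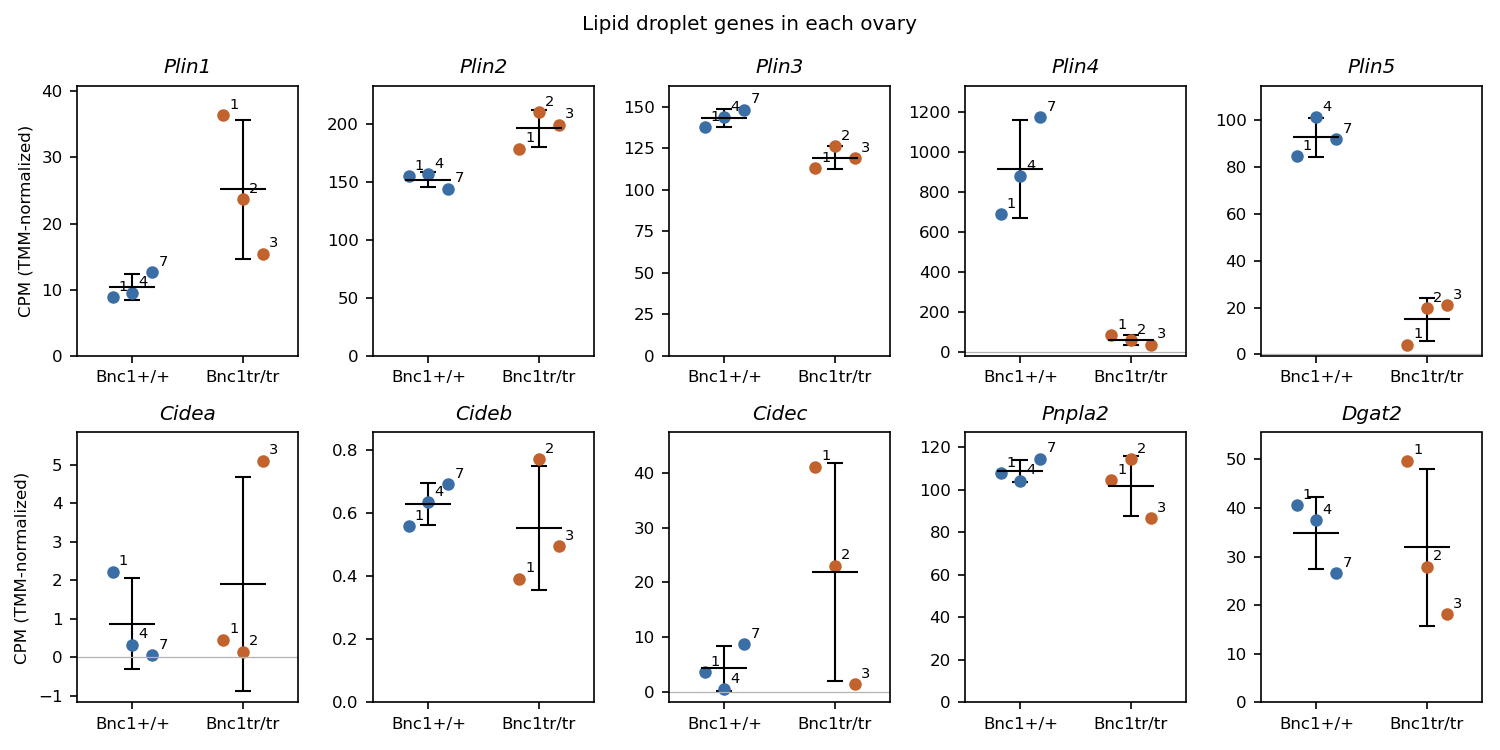
CPM of each of the 10 genes (vertical axes, TMM-normalized, 1 scale per gene) in the 3 Bnc1+/+ and 3 Bnc1tr/tr ovaries, with 1 point per ovary labelled by its replicate number and the mean ± SD in black. Plin4 and Plin5 are far lower in all 3 Bnc1tr/tr ovaries, whereas Cidea and Cidec are spread widely within each genotype.

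Plin4 encodes perilipin 4, a long coat protein of small nascent droplets that is abundant in adipocytes and muscle. It was at 689, 882 and 1176 CPM in Bnc1+/+ replicates 1, 4 and 7 and at 84.5, 60.7 and 38.1 CPM in Bnc1tr/tr replicates 1, 2 and 3. The lowest Bnc1+/+ ovary was therefore still 8.15-fold above the highest Bnc1tr/tr ovary. The mean went from 916 ± 246 to 61.1 ± 23.2 CPM (SD, n = 3), which is 15.0-fold lower in the fit. On the log2 scale the difference was -3.91 with an SE of 0.33 (edgeR, Benjamini-Hochberg adjusted p = 0.0017). By size of log2 fold change in either direction, Plin4 ranked 44 among the 19423 genes tested. It was past the threshold under all 12 alternatives of scaling, filter, tool or ovaries, with log2 fold changes from -4.21 to -3.66. Plin4 overlaps Hdgfl2 on the opposite strand by 17 bases at its 3′ end.

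Plin5 encodes perilipin 5, which ties droplets to mitochondria in tissues that burn fatty acids and restrains lipolysis by adipose triglyceride lipase. It was at 84.6, 101 and 92.1 CPM in Bnc1+/+ and at 4.20, 19.7 and 20.9 CPM in Bnc1tr/tr ovaries. Bnc1+/+ ovaries were close to each other, and among Bnc1tr/tr ovaries replicate 1 stood well below the other 2. Mean Plin5 was 92.6 ± 8.36 CPM against 14.9 ± 9.32 CPM (SD, n = 3), or -2.63 on the log2 scale with an SE of 0.49 (edgeR, Benjamini-Hochberg adjusted p = 0.0223). The call was lost when Bnc1+/+ replicate 1, 4 or 7 was left out, with adjusted p of 0.0513, 0.104 and 0.0733, while the log2 fold change stayed between -2.70 and -2.57. Under the 12 alternatives it was past the threshold in 9.

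The adjoining pair did not fall in step. Reads on Plin4 per read on Plin5 were 8.14, 8.71 and 12.8 in Bnc1+/+ ovaries against 20.1, 3.08 and 1.82 in Bnc1tr/tr ovaries. Bnc1tr/tr replicate 1 had the most Plin4 and the least Plin5 of its genotype, and replicate 3 the reverse. Corpus luteum markers were lower in the same ovaries, with 9 of the 12 called lower by edgeR and 0 called higher (0 higher also at an unadjusted p under 0.05, with DESeq2 and with limma-voom). Their median log2 fold change was -1.49, and single markers ran from -3.01 for Lhcgr, the luteinizing hormone receptor gene, to 0.0054 for Mt2, with Cyp11a1, the gene of the first enzyme of steroid synthesis, at -1.52. Akr1c18, Parm1 and Mt2 overlapped between the genotypes and were not called (edgeR, Benjamini-Hochberg adjusted p of 0.647, 0.580 and 0.993). Set against the reads summed over all 12 markers, Plin4 came to 2.92%, 3.12% and 4.31% in the wild type ovaries and to 1.14%, 0.470% and 0.335% in the mutant ones, without overlap. Plin5 came to 0.359%, 0.358% and 0.337% of the same sum in the wild type and to 0.0565%, 0.152% and 0.184% in the mutant, also without overlap. Cyp11a1 and Hsd3b1 alone held 69.5% to 83.1% of that sum, and how specific the markers are to luteal cells was not tested. Over the other 10 markers, Plin4 came to 10.2% to 14.2% in the wild type and 1.98% to 5.62% in the mutant, without overlap, and Plin5 to 1.11% to 1.30% and 0.279% to 1.09%, a gap that is narrow for Plin5. For Plin5, whether the ratio to a single marker overlapped between the genotypes differed with the marker. Reads on Plin5 per read on Star overlapped, at 0.0388, 0.0395 and 0.0563 in the wild type against 0.0278, 0.0285 and 0.0406 in the mutant. Reads on Plin5 per read on Cyp11a1 did not, at 0.00934, 0.00953 and 0.00853 against 0.00213, 0.00408 and 0.00545. Star is also among the genes nearest to Plin5 in profile over these same ovaries, so a ratio to Star that varies less is no separate observation. Per read on Lhcgr, Plin5 was above every wild type ovary in Bnc1tr/tr replicates 2 and 3 and below every one in replicate 1. Reads on Plin4 per read on Lhcgr, the marker with the most negative log2 fold change, were 1.27, 1.10 and 1.62 in the wild type ovaries against 0.910, 0.706 and 0.482 in the mutant ones. The part of luteal RNA in the lower Plin4 and Plin5 was not tested.

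The genes whose levels over the 6 ovaries were nearest to those of each gene are given as a description. The measure was the root mean square distance between log2 CPM profiles, each centred on its own mean, among tested genes with a mean of at least 1 CPM. For Plin4 the nearest were Ryr1 (distance 0.319), a calcium release channel gene of skeletal muscle, Bpifb6 (0.345) and LOC102638468 (0.367). For Plin5 they were St8sia5 (0.285), Slc12a8 (0.294) and Star (0.338), the last encoding the protein that carries cholesterol into mitochondria for steroid synthesis. Star was at 2180, 2565 and 1634 CPM in Bnc1+/+ against 151, 689 and 516 CPM in Bnc1tr/tr ovaries. Bnc1tr/tr replicate 1 was the lowest for Star as it was for Plin5, a likeness that follows from choosing Star by its profile.

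Plin1 encodes perilipin 1, the main gatekeeper of lipolysis in fat cells, and it rose. It was at 8.92, 9.58 and 12.7 CPM in Bnc1+/+ and at 36.4, 23.7 and 15.5 CPM in Bnc1tr/tr ovaries, without overlap. Mean Plin1 was 10.4 ± 1.99 CPM against 25.2 ± 10.5 CPM (SD, n = 3), or 1.28 on the log2 scale with an SE of 0.30 (edgeR, Benjamini-Hochberg adjusted p = 0.0442). This call was close to the threshold and was kept in 6 of 12 alternatives. It was lost with limma-voom (adjusted p = 0.0678) and without any 1 of Bnc1+/+ replicates 1, 4 and 7 and Bnc1tr/tr replicates 1 and 2 (adjusted p from 0.0664 to 0.178), and it stayed without Bnc1tr/tr replicate 3.

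Adipocyte markers paralleled Plin1 in part. All 14 had a positive log2 fold change, with a median of 2.23, but 0 of them passed with edgeR (6 at an unadjusted p under 0.05, 2 with DESeq2 and 0 with limma-voom) and the ovaries of the genotypes did not overlap for 2. Over all 19423 genes tested, 4698 had an unadjusted p under 0.05 with edgeR, and 30.8% did not overlap. The 2 Bnc1tr/tr ovaries with the most Plin1 also had the highest adipocyte sums, 564 and 375 CPM. Among the ovaries with the lowest sums, Plin1 was at 9.58 CPM in Bnc1+/+ replicate 4, where the sum was 45.1 CPM, and at 15.5 CPM in Bnc1tr/tr replicate 3, where it was 65.1 CPM. In those 2 ovaries the adipocyte hormone gene Adipoq was at 0.574 and 2.43 CPM. Reads on Plin1 per read on Adipoq ranged from 0.707 to 16.7 over the 6 ovaries. The nearest profiles to Plin1 were Lrg1 (distance 0.117), Scg5 (0.174) and Awat2 (0.203). Lrg1 lies 2081 bases beyond Plin5 on the same strand of chromosome 17, and it was at 3.34 ± 0.751 CPM in Bnc1+/+ and 7.24 ± 3.22 CPM in Bnc1tr/tr ovaries (SD, n = 3).

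Plin2 and Plin3 encode the coat proteins found in most cell types. Plin2, which covers droplets in non-adipose and steroid-making cells, was at 155, 157 and 144 CPM in Bnc1+/+ and at 179, 210 and 199 CPM in Bnc1tr/tr ovaries. The genotypes did not overlap, but the log2 fold change of 0.37 (95% interval 0.16 to 0.57) fell just short of the threshold (edgeR with Benjamini-Hochberg adjustment, adjusted p = 0.0510). Plin2 passed in 3 of 12 alternatives, namely library size as the only scaling, DESeq2, and leaving out Bnc1tr/tr replicate 1. Plin3, whose product moves from the cytosol onto new droplets, was at 138, 144 and 148 CPM in Bnc1+/+ and at 113, 126 and 119 CPM in Bnc1tr/tr ovaries. The log2 difference of Plin3 was -0.26 (95% interval -0.45 to -0.078, edgeR, Benjamini-Hochberg adjusted p = 0.0928), and it passed in 1 of 12 alternatives, DESeq2 (adjusted p = 0.0460). Both genes were steady within a genotype, with SDs of 5.40 to 15.9 CPM on means of 119 to 196 CPM.

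**Figure D2:**
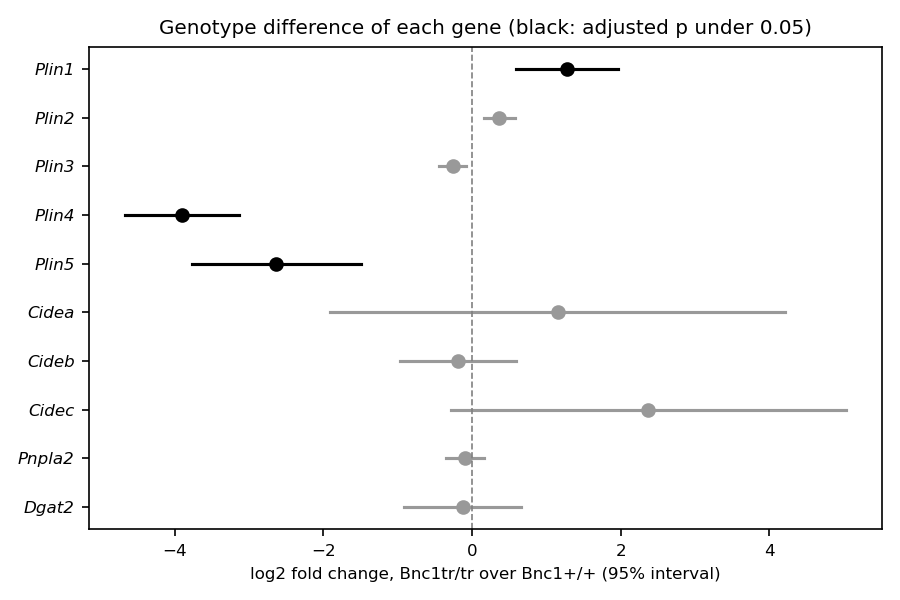
Log2 fold change of each gene, Bnc1tr/tr over Bnc1+/+ (horizontal axis), with its 95% interval from the edgeR fit, in black where the adjusted p was under 0.05. Plin4 and Plin5 lie left of 0 at -3.91 and -2.63, Plin1 lies right of it at 1.28, and the intervals of Cidea and Cidec span several units.

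To set the perilipins side by side, CPM were divided by the length of the exons of each gene in kilobases. Plin4 was the highest member in Bnc1+/+ ovaries at 158 ± 42.5 CPM per kilobase (SD, n = 3). Plin5 (44.4 ± 4.01) and Plin2 (43.3 ± 1.92) followed on the same scale with overlapping ovaries, then Plin3 (37.8 ± 1.43) and Pnpla2 (36.1 ± 1.73), which also overlapped. Dgat2 was at 11.3 ± 2.40 CPM per kilobase, and the other 4 members had means under 3 CPM per kilobase with neighbours that overlapped. The order was different in Bnc1tr/tr ovaries. There Plin2 was the highest at 55.8 ± 4.54 CPM per kilobase, followed by Pnpla2 (33.7 ± 4.68) and Plin3 (31.5 ± 1.78), which overlapped. Cidec, Plin4, Dgat2, Plin5 and Plin1 came next with means from 11.8 to 5.42 CPM per kilobase, each overlapping its neighbour in that order, and Cidea and Cideb were the lowest.

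The summed level of the 5 perilipins was 242, 286 and 331 CPM per kilobase in Bnc1+/+ against 105, 118 and 108 CPM per kilobase in Bnc1tr/tr ovaries. Plin4 made up 49.2%, 53.4% and 61.6% of that sum in Bnc1+/+ against 13.9%, 8.89% and 6.09% in Bnc1tr/tr ovaries. Plin2 made up 18.2%, 15.6% and 12.4% in Bnc1+/+ against 48.4%, 50.6% and 52.5% in Bnc1tr/tr ovaries. Plin4 was thus the largest part in each wild type ovary and Plin2 in each mutant ovary. These shares are parts of a whole, so the larger share of Plin2 goes together with the smaller share of Plin4, and the level of Plin2 per kilobase went from 43.3 to 55.8.

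**Figure D3:**
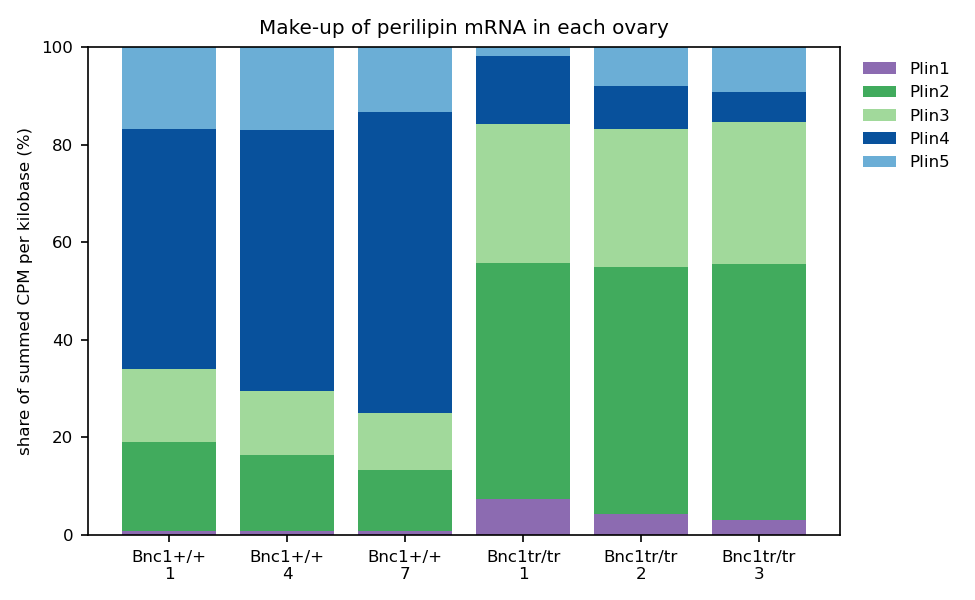
Share of each perilipin in the summed CPM per kilobase of Plin1 to Plin5 (vertical axis, percent), with 1 bar per ovary. Plin4 fills 49.2% to 61.6% of the Bnc1+/+ bars and 6.09% to 13.9% of the Bnc1tr/tr bars, where Plin2 fills 48.4% to 52.5%.

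The 3 CIDE genes did not pass the test. Cidec, which encodes the fat-specific protein that lets droplets of adipocytes fuse into a single large one, was at 3.57, 0.483 and 8.66 CPM in Bnc1+/+ and at 41.2, 23.1 and 1.30 CPM in Bnc1tr/tr ovaries. Bnc1tr/tr replicates 1 and 2 were above every Bnc1+/+ ovary, and replicate 3 was below 2 of the 3. The log2 difference of Cidec, 2.37, had a 95% interval from -0.28 to 5.03 (edgeR with Benjamini-Hochberg adjustment, adjusted p = 0.252). The nearest profiles were those of the adipocyte markers Adipoq (distance 0.256), Car3 (0.295) and Lep (0.310). Reads on Cidec per read on Adipoq lay between 0.536 and 0.854 in all 6 ovaries, and Adipoq ranged from 0.574 to 51.4 CPM. Adipoq was the nearest profile to Cidec in these same ovaries, so a steady ratio follows from that choice. The part of adipocyte RNA in the levels of Plin1 and Cidec was not tested.

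Cidea, which is best known from brown fat, was at 2.23, 0.332 and 0.0690 CPM in Bnc1+/+ and at 0.462, 0.154 and 5.11 CPM in Bnc1tr/tr ovaries, from 60, 11, 2, 13, 4 and 145 reads in that order. Bnc1+/+ replicate 1 and Bnc1tr/tr replicate 3 were above the rest, and the genotypes overlapped. The log2 difference of Cidea was 1.15 (95% interval -1.91 to 4.21, edgeR, Benjamini-Hochberg adjusted p = 0.639), and it was -1.45 without Bnc1tr/tr replicate 3. The same 2 ovaries had the highest sums of oviduct markers, 159 and 560 CPM, with the ciliated cell factor Foxj1 at 7.88 and 37.1 CPM against 0.345 to 1.45 CPM elsewhere. Nearest to Cidea were Gabrp (distance 0.325), Sec14l3 (0.362) and Ccdc37 (0.427). Of the 5 brown adipocyte markers tested (8 listed, summing to 11.1 to 14.1 CPM in Bnc1+/+ and 13.2 to 16.1 CPM in Bnc1tr/tr ovaries) edgeR called 0, with 1 at an unadjusted p under 0.05, 1 with DESeq2 and 0 with limma-voom. The defining marker Ucp1 had 1 read in Bnc1+/+ replicate 4 and 0 reads in the other 5 ovaries. The part of oviduct RNA in the level of Cidea was not tested. Cidea overlaps B430212C06Rik on the opposite strand by 500 bases, and whether reads were counted by strand is not given in the sources used here, so its reads are uncertain.

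Cideb, the CIDE gene of liver and intestine, had 15, 21 and 20 reads in Bnc1+/+ against 11, 20 and 14 reads in Bnc1tr/tr ovaries. That is 0.627 ± 0.0664 and 0.552 ± 0.196 CPM (SD, n = 3), with overlapping ovaries and a log2 fold change of -0.19 (95% interval -0.98 to 0.59). Cideb overlaps the 3′ part of Nop9 on the opposite strand by 1451 bases, so its reads are uncertain in the same way.

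**Figure D4:**
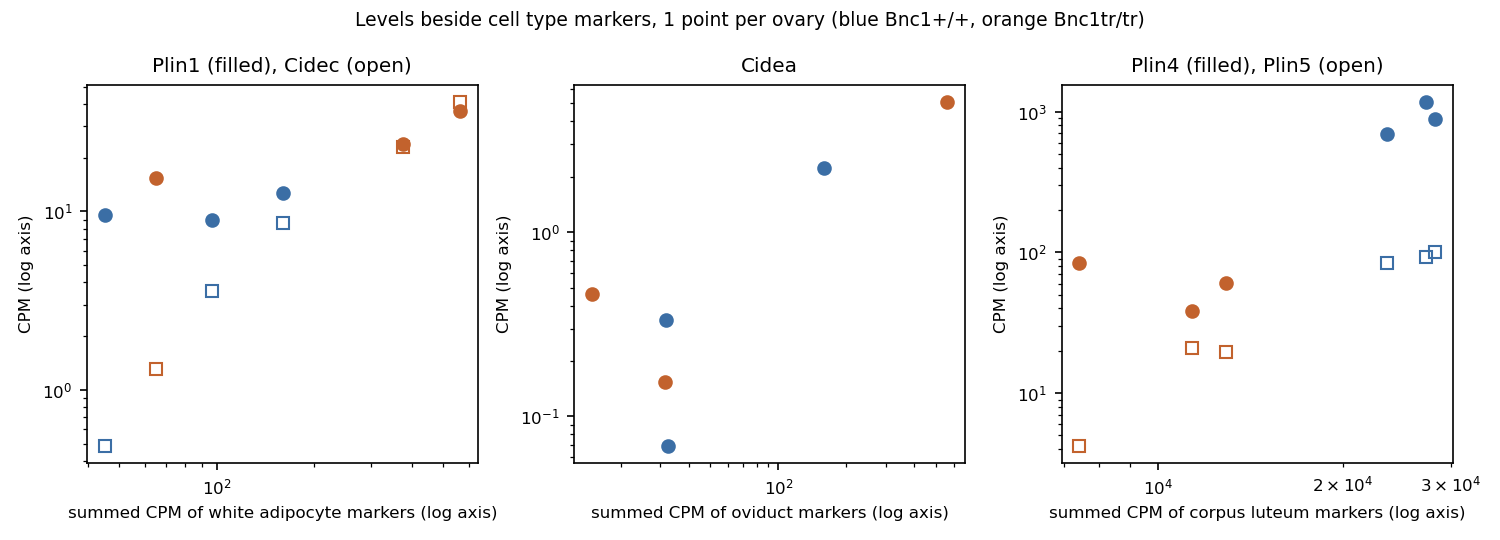
CPM of members against the summed CPM of cell type markers, 1 point per ovary on log axes, blue for Bnc1+/+ and orange for Bnc1tr/tr. Cidec (open squares, left) rises with the adipocyte sum in all 6 ovaries whereas Plin1 (filled circles) is at 8.92 CPM or above in every ovary, the 2 highest Cidea points (middle) have the highest oviduct sums, and Plin4 and Plin5 (right) lie in separate clusters by genotype.

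The member enzymes that fill and empty droplets did not pass the test. Pnpla2, the gene of the lipase that removes the first fatty acid of a triglyceride, was at 108, 104 and 115 CPM in Bnc1+/+ and at 104, 114 and 86.6 CPM in Bnc1tr/tr ovaries. The log2 difference of Pnpla2, -0.096, had a 95% interval of -0.36 to 0.16 (edgeR with Benjamini-Hochberg adjustment, adjusted p = 0.645), the narrowest of the 7 members that did not pass apart from Plin2 and Plin3. Dgat2, the gene of an enzyme of the last step of triglyceride synthesis, was at 40.6, 37.5 and 26.5 CPM in Bnc1+/+ and at 49.7, 27.9 and 18.2 CPM in Bnc1tr/tr ovaries. Both genotypes spread widely and overlapped, and the log2 fold change of -0.13 had a 95% interval of -0.91 to 0.66 (edgeR with Benjamini-Hochberg adjustment, adjusted p = 0.853). The nearest profiles to Dgat2 were LOC102640359 (distance 0.184), Gyk (0.195), which encodes glycerol kinase, and Mettl21c (0.200).

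Genes that act with the members on droplets were counted in 4 lists. Of 12 other lipases and lipolysis regulators, 1 was called lower and 1 higher by edgeR, against 4.19% and 2.88% of all genes tested. The median log2 fold change was -0.15. The ovaries of the genotypes did not overlap for 8 of the 12, against 30.8% of all genes tested. With edgeR, 6 of the 12 had an unadjusted p under 0.05, 2 of them higher, against 4698 of the 19423 genes tested. DESeq2 called 4 of the 12, 1 of them higher, and limma-voom 2, 1 of them higher. Lipe, which encodes hormone-sensitive lipase and cleaves diglycerides and cholesterol esters, fell from 98.4, 101 and 79.0 CPM to 66.3, 66.8 and 52.6 CPM, without overlap. On the log2 scale Lipe differed by -0.59 with an SE of 0.13 (edgeR, Benjamini-Hochberg adjusted p = 0.0413), and it passed in 6 of 12 alternatives. Hilpda, whose product inhibits adipose triglyceride lipase, rose from 15.6, 15.2 and 14.7 CPM to 19.6, 20.6 and 21.1 CPM. It differed by 0.43 on the log2 scale with an SE of 0.092 (edgeR, Benjamini-Hochberg adjusted p = 0.0349), and it also passed in 6 of 12. Other direct regulators of that lipase did not pass, its activator gene Abhd5 with a log2 fold change of -0.17 (95% interval -0.36 to 0.027) and its inhibitor gene G0s2 with 0.42 (0.088 to 0.75, edgeR with Benjamini-Hochberg adjustment, adjusted p = 0.124).

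Of 15 tested genes of triglyceride and steryl ester synthesis, 3 were called lower and 0 higher by edgeR, against 4.19% and 2.88% of all genes tested. Their median log2 fold change was -0.23. With edgeR, 8 of the 15 had an unadjusted p under 0.05, 2 of them higher, against 4698 of the 19423 genes tested. DESeq2 called 6 of the 15, 1 of them higher, and limma-voom 3, 0 of them higher. The ovaries of the genotypes did not overlap for 9 of the 15, against 30.8% of all genes tested. Gpam, the gene of the mitochondrial acyltransferase of the first step, fell from 625, 550 and 565 CPM to 326, 379 and 367 CPM. That was -0.70 on the log2 scale with an SE of 0.097 (edgeR, Benjamini-Hochberg adjusted p = 0.0072), and all 12 alternatives kept it past the threshold. Dgat1, which encodes the other enzyme of the last step, fell from 43.9, 50.4 and 48.2 CPM to 32.3, 33.0 and 30.2 CPM, without overlap. The log2 difference of Dgat1, -0.58 with an SE of 0.089 (edgeR, Benjamini-Hochberg adjusted p = 0.0107), compares with -0.13 for Dgat2, whose interval includes that value. Dgat1 passed in 11 of 12 alternatives. Its call was lost without Bnc1+/+ replicate 4 (edgeR, Benjamini-Hochberg adjusted p = 0.0678), where the log2 fold change was -0.54. Mogat2, a monoacylglycerol acyltransferase gene, fell from 62, 54 and 24 reads to 2, 0 and 8 reads (edgeR with Benjamini-Hochberg adjustment, adjusted p = 0.0331), so the size of its change rests on few reads, and 7 of 11 alternatives kept the call. It passed the filter on low counts only through Bnc1+/+ ovaries, and it was not tested where 10 counts were required in every ovary, so without it 2 genes of this list were called lower. Soat1, the gene of an enzyme that makes cholesterol esters, was at 305 ± 16.6 and 242 ± 12.8 CPM (SD, n = 3) and just missed the threshold (edgeR with Benjamini-Hochberg adjustment, adjusted p = 0.0564). Soat2 and Lpin1 also fell short, with log2 fold changes of -1.01 and 0.35 (edgeR, Benjamini-Hochberg adjusted p of 0.0637 and 0.0607). Soat2 was low, at 2.31 and 1.14 CPM on average.

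Of 16 tested genes of droplet assembly and surface, 0 were called by edgeR (2 at an unadjusted p under 0.05, 1 with DESeq2 and 0 with limma-voom), and the median log2 fold change was -0.0034. The ovaries of the genotypes did not overlap for 6 of the 16, near the 30.8% of all genes tested. Of 10 transcription factor genes with targets among droplet genes, 0 were called by edgeR (5 at an unadjusted p under 0.05, 1 with DESeq2 and 0 with limma-voom) and the median was 0.24. Over all 19423 genes tested, 4698 had an unadjusted p under 0.05 with edgeR, DESeq2 called 2420 and limma-voom 1303. Pparg, the master regulator of fat cell genes, was at 28.9, 34.0 and 33.0 CPM in Bnc1+/+ and at 43.3, 17.2 and 25.7 CPM in Bnc1tr/tr ovaries. Ppara, which drives fatty acid oxidation genes, was at 12.7, 17.8 and 13.5 CPM and at 25.6, 18.4 and 16.6 CPM. Both overlapped between the genotypes. The ovaries did not overlap for 4 of the 10 factors, near the 30.8% of all genes tested, with log2 fold changes of 0.62 for Cebpa, 0.42 for Ppargc1a, 0.31 for Rxra and -0.23 for Srebf1, which did not pass (edgeR with Benjamini-Hochberg adjustment, adjusted p of 0.0631, 0.365, 0.123 and 0.107).

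**Figure D5:**
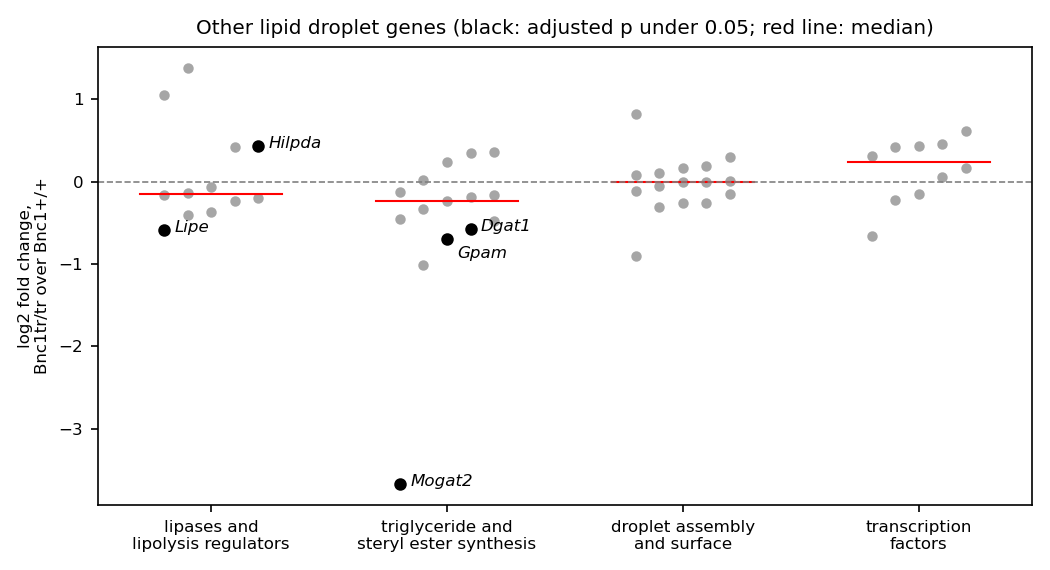
Log2 fold change, Bnc1tr/tr over Bnc1+/+ (vertical axis), of the tested genes of 4 lists of droplet genes, 1 point per gene, black with a name where the adjusted p was under 0.05 and a red line at the median of the list. The 5 named genes are Lipe, Hilpda, Dgat1, Gpam and Mogat2, and the medians lie between -0.23 and 0.24.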

How the data were processed

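RNA-seq of 6 ovaries was analysed, with 3 per genotype taken from the genotype label. The authors extracted total RNA with TRIzol, made single-end Ion Proton libraries and deposited raw counts, whole numbers of reads per gene symbol and ovary without normalization. The submitters' processing notes name mm10 and Sscrofa10.2. The aligner, counter and annotation are not given in the sources used here. Genes were filtered with filterByExpr (minimum count 10, 19423 of 44788 genes kept), TMM-normalized and tested two-sided by glmQLFit and glmQLFTest of edgeR 4.0.16 under R 4.3.3. The Benjamini-Hochberg adjustment covered every gene tested. Standard errors and 95% intervals were derived from its F statistic. Replicates of a genotype differed by more than sampling noise (chi-square per degree of freedom 15.6 to 58.5), so no library was a copy of another. That measure covers counting error only and does not show that the samples came from separate ovaries. Nothing in the labels says whether each sample was 1 animal, and p-values measure the spread between these samples. Gene positions and exon lengths came from GENCODE M21 (GRCm38). Older symbols were matched through RefSeq synonyms, which left 1 of 55 pathway genes (Ldaf1) unmatched.

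The members and lists were chosen with earlier results of these data known. Genes named were all members, the called genes of the pathway lists, and, for members with an SD of log2 CPM (prior count 2) of at least 0.5 over the 6 ovaries, the 3 nearest profiles. Pparg, Ppara, Cebpa, Ppargc1a, Rxra, Srebf1, Abhd5, G0s2, Soat1, Soat2, Lpin1, the markers and the ratios of reads were picked after values were seen. Alternatives were DESeq2 size factors, library size alone, no filter, at least 10 counts in every ovary, DESeq2 1.42.0, limma-voom (limma 3.58.1) and leaving out each ovary. Counting error and ovary spread limit genes with few reads.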

Additional observations from a re-analysis of the deposited data

How the results depend on the processing

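The number of genes called between the genotypes was 1372, and it was 2420 with DESeq2 and 320 to 1282 when each ovary was left out, lowest without Bnc1+/+ replicate 4. The members called lower were 2, and they were 3 with DESeq2 (Plin3 added) and 1 to 2 when each ovary was left out (Plin4 in every case). The members called higher were 1 (Plin1), and they were 2 with library size alone, 2 with DESeq2 (Plin2 added in both), 0 with limma-voom and 0 to 1 when each ovary was left out. The 1 was Plin2 without Bnc1tr/tr replicate 1 and Plin1 without Bnc1tr/tr replicate 3. Directions turned only for members short of the threshold, with log2 fold changes of 0.0021 for Pnpla2 with library size alone, and in the fits that left out 1 ovary. In those the log2 fold change was -0.50 to 0.0035 for Cideb (above 0 without Bnc1tr/tr replicate 1), and -1.45 to 3.19 for Cidea, -0.19 to 0.0082 for Pnpla2 and -0.60 to 0.16 for Dgat2 (each turned without Bnc1tr/tr replicate 3). Library size alone moved the median log2 fold change of all genes tested from 0.018 to 0.12. It gave 616 genes called lower and 1112 higher, against 813 and 559. All 18 nearest profiles were the same genes with library size alone. Cidea could not be fitted with at least 10 counts in every ovary. The paper states that littermates were compared, but the sample labels give no litter. No paired analysis was possible because of this and because the genotypes share only replicate number 1. Reads were fewest for Cidea and Cideb, with 2 to 145 and 11 to 21 per ovary, and the parts of counting error and of ovary spread in their intervals were not tested.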
